A study of Drosophila melanogaster and Drosophila biarmipes with 20 samples.

Results

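Chromatin accessibility of male Drosophila melanogaster pupal wings was compared between 60% and 69% of pupal development. The comparison used 4 of the 20 libraries of the study, 2 at each stage, which the labels call biological replicates. The other 16 libraries were D. melanogaster wings at 0%, 48% and 78%, and D. biarmipes wings, which were not used here. ATAC-seq measures accessibility by letting a transposase cut open DNA and insert sequencing adapters. The data are the authors' lists of enriched stretches, called entries below, which give positions on the dm6 assembly but no signal strength. Entries of the 10 D. melanogaster lists were merged into 98646 regions, of which 62463 were listed by at least 1 of the 4 libraries and are called assessed. A region opened if both 69% libraries and neither 60% library listed it, and closed if both 60% libraries and neither 69% library did. This gave 4758 opened and 1661 closed regions.

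The labels give no genotype, strain or treatment for either stage. Flies were kept at 20 °C with a daily light cycle, and each library was made from 24 wings. The file headers name 96 hours for 60% and 110 hours for 69%. Wings older than 60% were cut before disruption and those at 60% were not, so the cutting and the stage cannot be told apart. In this window the wing epithelium has stopped dividing, its cells have grown hairs and secrete adult cuticle, and sclerotin and pigment precursors are being made. Cuticle is built from chitin and cuticular proteins and then hardened and coloured by dopamine derivatives. Ebony joins dopamine to beta-alanine, Tan reverses this, and Yellow and laccase act towards black melanin and hardening. Falling ecdysone and the factors it induces time these steps.

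The 4 libraries held 86538200 to 113014233 tags, so depth was close, but the lists differed in length. The 60% libraries listed 45583 and 36364 of the merged regions and the 69% libraries 48908 and 48585. The short list was that of 60% replicate 2, for which the caller also estimated a fragment length of 138 bp, against 50 to 58 bp in the other 3. Its entries had a median width of 290 bp, against 180 to 186 bp in the others. Tags inside entries made up 55.35% and 53.09% of all tags at 60% and 46.33% and 46.94% at 69%, so the stages did not overlap in this share (exact two-sided permutation p = 0.333, the smallest that 2 against 2 libraries can give). The headers place replicate 1 of both stages in a folder dated to month 6 of 2020 and replicate 2 in one dated to month 8. Wing genes were accessible in every library: regions of nub, vg, ap, sd, rn and bs were listed at 59.6% and 47.3% at 60% and at 56.8% and 55.5% at 69%, and none of these genes was without an entry. Muscle markers were listed at 42.4% and 30.3%, then 46.5% and 40.9%, and neuron markers at 33.1% and 22.8%, then 39.3% and 38.6%. Hemocyte markers were listed at 49.3% and 43.5%, then 47.8% and 46.4%. Sensory organ markers were listed at 40.2% and 29.4%, then at 41.2% or more in each library. Tracheal markers, at 60.2% and 53.7%, then 53.7% and 54.6%, stood near the wing genes, so this measure did not set wing genes apart from them. Of 6 sensory organ markers 3, and of 7 hemocyte markers 2, had no entry in their span in any of the 4 libraries. As with the wing genes, this was so for none of the muscle, neuron and tracheal markers. In tissue lists, fewer cells of a type and less accessibility per cell cannot be told apart.

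More regions opened than closed between 60% and 69%. Opened regions were 7.62% of the assessed regions and closed regions 2.66%, while 30490 regions were listed by all 4 libraries. The excess of opened regions turned with lists of equal length. With the same number of entries taken from the top of each list, 2334 regions opened and 2767 closed, so the order turned. The rule also passed over many regions by 1 library: 5111 regions were in both 69% lists and in 60% replicate 1 only, and 562 in both 69% lists and 60% replicate 2 only. On the other side, 1016 were in both 60% lists and 69% replicate 1 only, and 1133 in both and 69% replicate 2 only. Without 60% replicate 2 there were 5320 opened and 4942 closed regions, and without 60% replicate 1 there were 9869 and 2610. Without 69% replicate 1 the rule gave 9509 and 2677, and without 69% replicate 2 it gave 10065 and 2794.

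Both kinds of region were narrower than assessed regions, and fewer of them lay near gene ends. Opened regions had a median width of 242 bp, closed regions of 343 bp, and regions listed by all 4 libraries of 728 bp. These are widths after merging over all D. melanogaster lists. The length listed in the libraries that held them had a median of 138 bp, 163 bp and 437 bp. Some opened regions, such as 3L:13657203-13657305 in the gene bru3, had 101 bp listed in each library that held them. That is close to the caller's size setting of 100 bp. A gene was overlapped by 74.8% of opened, 77.3% of closed and 75.6% of assessed regions. Within 500 bp of a gene end lay 19.1% of opened and 18.7% of closed regions, against 36.1% of those listed by all 4 and 28.0% of all assessed. After an opened region the next assessed region along the chromosome was also opened in 10.6% of cases, beside 7.62% of all assessed regions, and after a closed region also closed in 6.2%, beside 2.66%.

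In the libraries that the rule did not use, the 2 sets were listed at different rates. Assessed regions include the 30490 listed by all 4 libraries. Of these, 73.7% were in both 48% lists and 86.1% in both 78% lists. The rule keeps them out of both sets, so part of each gap from assessed regions is set in advance. Most opened regions were not listed at earlier stages. The 48% libraries listed 7.23% and 7.78% of opened regions, against 44.5% and 49.8% of assessed regions. No 0% and no 48% library listed 2943 of them (61.9%, against 30.8% of assessed regions). At 78% the libraries listed 55.4% and 66.7% of opened regions, and 2161 (45.4%) were in both. Of assessed regions the same libraries listed 62.0% and 70.5%, and 55.9% were in both. In both wing disc lists were 971 opened regions (20.4%, against 46.1% of assessed regions). In neither 48% list were 4264 (89.6%, against 47.4%). Both conditions together held for 789 opened regions (16.6%, against 10.2% of assessed regions). That larger share goes with the absence at 48%, since listing in both wing disc lists was itself less frequent among opened regions. These 789 were listed at 0%, absent at 48% and, by the rule, at 60%, and listed again at 69%. Regions found at 69% alone of all stages numbered 701, or 14.7%, near the 12.5% of assessed regions that no 0%, 48% or 78% library listed.

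Closed regions were listed at 48% somewhat more often than assessed regions, and rarely at 78%. The 48% libraries listed 53.2% and 56.4% of them, and 771 (46.4%) were in both 48% lists. At 78% they were listed at 14.0% and 25.0%, and 1143 (68.8%) were in neither 78% list, against 23.4% of assessed regions. Those in both 48% lists and in neither 78% list numbered 554, or 33.4%, against 3.68% of assessed regions. In 297 (17.9%) no library of another stage listed the region, so these were seen at 60% alone. Only 131 closed regions (7.89%) came back in both 78% lists.

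**Figure D1:**
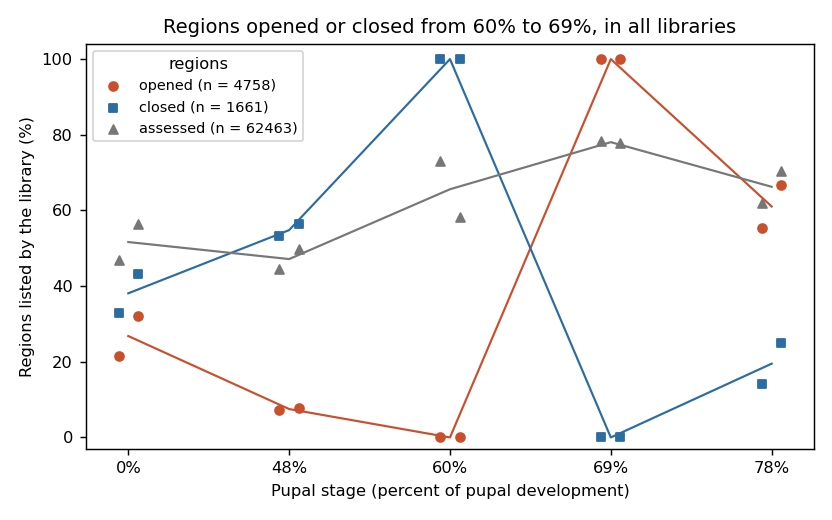
Percent of the opened (n = 4758), closed (n = 1661) and assessed (n = 62463) regions that each of the 10 D. melanogaster libraries listed, by stage. Points are libraries and lines join stage means; the values at 60% and 69% of opened and closed regions are fixed by the rule, and at 78% the opened regions stood at 55.4% and 66.7% while the closed regions stood at 14.0% and 25.0%.

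The steps on either side share libraries with this one and are given side by side only. From 48% to 60%, 6043 regions opened and 2169 closed. From 69% to 78%, 2353 opened and 3228 closed.

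The X chromosome stood apart from the large autosomal arms, and mostly in closing. Of 4809 assessed X regions, 348 closed (7.24%) and 286 opened (5.95%). On 2L, 2R, 3L and 3R together, 2.3% closed and 7.66% opened, and each of these arms had a closed share of 2.26% to 2.32%. The X held 7.7% of assessed regions and 21.0% of closed regions. The X was also above the other arms within each replicate number: within replicate 1, 16.8% of X regions closed against 13.2% on the autosomal arms, and within replicate 2, 13.3% against 6.91%. With an equal number of entries from each list the shares were 11.7% and 5.65%.

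The share of a library's listed regions that lay on the X was 9.04% and 9.78% at 60% and 7.84% and 7.62% at 69%. The stages did not overlap (exact two-sided permutation p = 0.333, the smallest possible). This share was 13.0% and 11.5% at 48% and 6.69% and 5.68% at 78%, so the 60% and 69% values lay between those of their neighbours. Genes with several closed regions on the X included Cht6, mgl and RhoU, described below. The Y chromosome and unplaced sequence, which are rich in repeats, showed the reverse: 24 of 154 Y regions (15.6%) and 84 of 459 unplaced regions (18.3%) opened, and 0 and 3 closed. Reads from repeats can map to several places, and the labels and headers do not say whether such reads were kept.

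**Figure D2:**
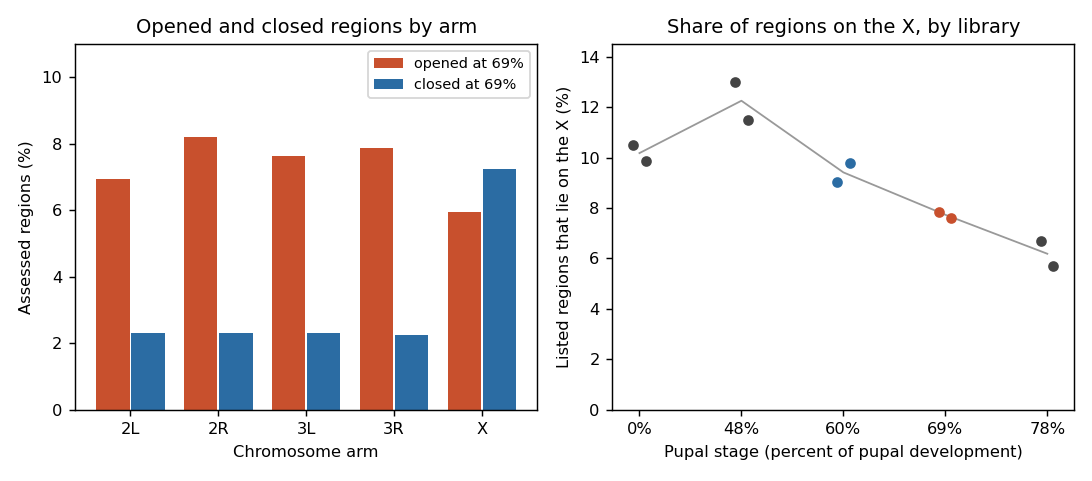
Left, percent of assessed regions that opened or closed on each large chromosome arm, with the X at 7.24% closed against 2.26% to 2.32% on the others. Right, percent of each library's listed regions that lay on the X, by stage, with points for libraries and a line through stage means; 60% libraries are blue and 69% libraries orange.

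Opened and closed regions were spread over many genes, and some genes held several. Of 11284 protein-coding genes with an assessed region, 2735 had an opened region, 1176 a closed region and 508 both. At least 3 opened regions were found in 359 genes and at least 3 closed regions in 91, with 35 genes in both sets. Of the genes with several opened regions 204 had none closed, and of those with several closed regions 23 had none opened. Long genes hold more regions, so each count is given with the number assessed.

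DIP-lambda had the most opened regions, 30 of 195 assessed and 0 closed. It encodes an immunoglobulin-domain partner of the Dpr cell surface proteins and spans 379081 bp (2R:326768-705848). The 60% libraries listed 123 and 91 of its regions and the 69% libraries 182 and 160, counts that go with the rule by which it was named. All 30 were absent from the 0% and 48% lists, and 26 were in both 78% lists. The widest, at 2R:392865-394109, had 939 and 629 bp covered at 69% and 1109 and 971 bp at 78%. With an equal number of entries from each list 10 of its regions opened. The share of its span covered was 18.6% and 11.9% at 60% and 32.0% and 27.4% at 69%. Its opened share, 15.4% with 0 closed, was near that of the Y (15.6% opened, 0 closed). The gene lies near the low-coordinate end of 2R. Whether reads that map to several places add to these values was not tested.

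fru, which encodes sex-specifically spliced zinc finger factors, was the gene with many changes of both kinds. Of its 92 regions 12 opened and 5 closed. The opened ones included 3R:18434484-18435198, with 476 and 541 bp covered at 69%, 428 and 433 bp at 78%, and none earlier. The closed ones included 3R:18499765-18500473, covered over 670 and 682 bp at 48% and 488 and 479 bp at 60% and in neither later stage. With lists of equal number 12 opened and 8 closed.

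CG17839 had 12 of 65 regions opened, of which 10 were in both 78% lists. Fur1, a furin-type protease gene, had 11 of 74, and shot, for the spectraplakin that links actin and microtubules, had 11 of 73. Of the opened regions of shot, 9 were in no 0% or 48% list, but only 2 were in both 78% lists. The RNA-binding protein gene bru3 had 11 of 166 (6.63%, below the 7.42% of all genes), of which 1 was in both 78% lists, and the phosphatase gene Ptp61F had 10 of 59, also with 1. The translational repressor gene pum had 10 of 85 and the zinc finger gene jing 10 of 88. sano, a planar polarity gene, had 9 of 56, and side-VIII, of the sidestep immunoglobulin family, had 9 of 61. With an equal number of entries side-VIII had 0 opened regions, bru3 2, Ptp61F 3, jing 3, sano 4, Fur1 5, CG17839 7, shot 8 and pum 8.

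pip, for a sulfotransferase known from the egg chamber, had a dense share of opened regions, 10 of 41. The 60% libraries listed 21 and 16 of them and the 69% libraries 36 and 34. Equal numbers of entries left 9 opened. Only 2 of the 10 were in both 78% lists. The share of its span covered was 24.1% and 20.2% at 60%, 42.5% and 37.7% at 69%, and 26.0% and 27.6% at 78%.

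**Figure D3:**
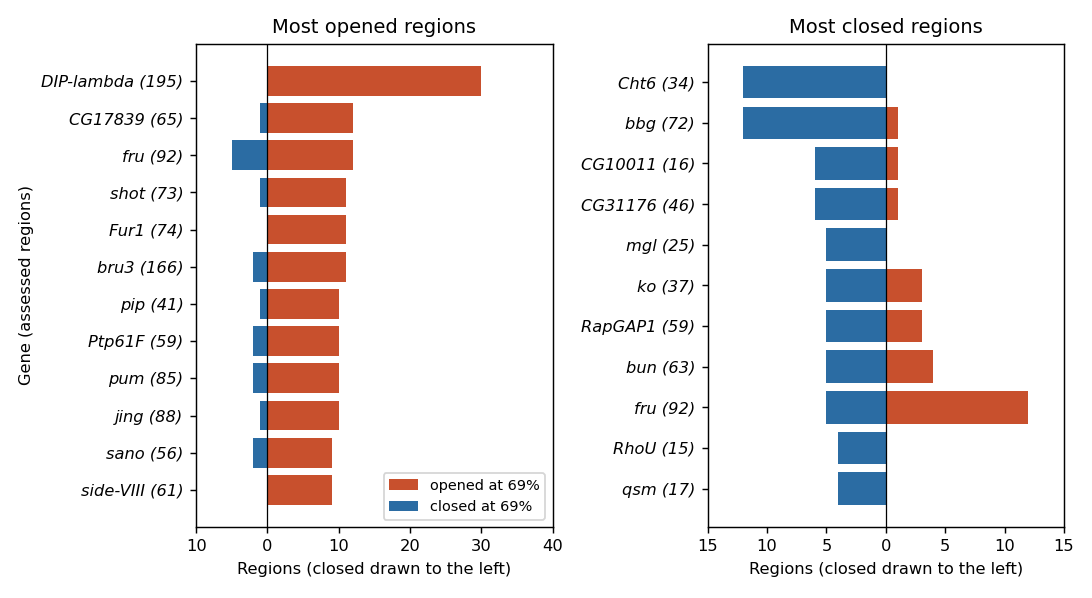
Number of opened regions (orange, to the right) and closed regions (blue, to the left) in the 12 genes with most opened regions and in 11 of the 12 with most closed regions, with the number of assessed regions in brackets. DIP-lambda had 30 opened and 0 closed, and Cht6 12 closed and 0 opened; fru is in both panels.

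Cht6, which encodes a chitinase, had 12 of its 34 assessed regions closed and 0 opened (X:10016845-10050803). The 60% libraries listed 34 and 24 of its regions and the 69% libraries 12 and 10. None of the 12 was in a 78% list, and 3 were in both 48% lists. The widest, X:10022291-10024096, was covered over 1694 and 1601 bp at 48%, 604 and 401 bp at 60% and 0 bp at 69% and 78%. Taking an equal number of entries again closed 12. Within replicate 1, 22 of its regions closed, and within replicate 2, 14.

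bbg, for the PDZ-domain protein Big bang of epithelial junctions, also had 12 closed regions, of 72, and 1 opened. Of the 12, 8 were in both 48% lists and 9 in neither 78% list. Its widest, 3L:14514267-14515225, was covered over 936 and 923 bp at 0%, 763 and 745 bp at 48%, 560 and 639 bp at 60%, and none later. With lists of equal number 13 closed.

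RhoU, for a small GTPase, had 4 of 15 closed, all 4 present in both 48% lists and absent at 78%. mgl had 5 of 25 closed, and all 5 were absent at 78%. It encodes the endocytic receptor Megalin, known to take up Yellow protein from developing cuticle. qsm, for a zona pellucida domain protein, had 4 of 17 closed, and none of the 4 was in both 48% lists.

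CG10011 had 6 of 16 regions closed, a share of 37.5%, and CG31176 6 of 46, each with 1 opened. Of the closed regions of CG10011 only 2 were in neither 78% list, against 5 of those of CG31176. The remaining genes with most closed regions had opened ones too. bun, of the TSC22 family, had 5 of 63 closed and 4 opened, ko 5 of 37 closed and 3 opened, and RapGAP1, a regulator of the Rap1 GTPase, 5 of 59 closed and 3 opened.

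Counting regions gives no error for a gene, so the length of DNA covered in each gene's regions was tested across all 10 libraries with limma. The scale is log2 of covered base pairs plus 100, after scaling each library to the same sum. At a Benjamini-Hochberg adjusted p under 0.05, 68 of 9488 genes had more covered length at 69% (0.717%) and 79 had less (0.833%). At an unadjusted p under 0.05 there were 652 and 733. Of the 79 lower genes 46 lay on the X, where 1240 genes were tested. The median difference was -0.25 on the X and 0.01 on the large autosomal arms. Without 60% replicate 2 the counts were 0 higher and 1 lower, and without 69% replicate 1 they were 0 and 2. Without 69% replicate 2 they were 1 and 5, and without 60% replicate 1 they were 57 and 23; in each the lone library is assumed to vary like the others.

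Of the genes with most closed regions Cht6 fell by 1.17 (SE 0.16, limma adjusted p = 0.0176) and qsm by 0.72 (adjusted p = 0.0126). CG31176 fell by 0.59 (adjusted p = 0.0367), RhoU by 0.68 (adjusted p = 0.0392) and mgl by 0.45 (adjusted p = 0.037). Of those with most opened regions only pip passed, higher by 0.78 (SE 0.12, adjusted p = 0.0251). DIP-lambda differed by 0.95 with an SE of 0.34 and did not pass (adjusted p = 0.244). These genes were chosen by region counts from the same 4 libraries. Their differences in covered length are thus partly set by that choice and are no independent check of it. The smallest p-values among lower genes belonged to CG45064, on the X, which fell by 2.67 (SE 0.16, adjusted p = 0.000746). Then came CG34398, CG42449, Karl, a lipocalin gene, CG34462 and Snx27, a sorting nexin gene. CG42449, Karl and Snx27 also lie on the X, as do Cht6, RhoU and mgl above. Over all X genes tested the median difference was -0.25. Among higher genes the smallest p-values belonged to CG30394, up by 3.23 (SE 0.28, adjusted p = 0.00413), Mst87F, CG6996, CG13722, CG12991, on the X, and CG13231. Of 31 genes named in the text that passed this test, CG45064 alone passed with each of the 4 libraries left out in turn, 15 passed in some of these fits and 15 in none, and all 31 kept their sign. Cht6, qsm, CG31176, RhoU, mgl and pip were among the 15; Cht6 had an adjusted p of 0.0769 without 60% replicate 1 and 0.104 to 0.14 without each of the others.

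Several genes were covered over a much larger or smaller part of their whole span at 69% than at 60%, often with few or no regions called opened or closed. This measure, the percent of a gene's span that a library's entries cover, and the genes named for it were chosen after the data had been seen. It was tested with limma across the 10 libraries for 9222 genes with a span of at least 1000 bp and a mean of at least 5%. At 69%, 71 genes were higher (0.77%) and 61 lower (0.661%) at an adjusted p under 0.05, and 832 and 571 at an unadjusted p under 0.05. Over all these genes the median difference was 0.66 percentage points; it was -0.04 without 69% replicate 1, 0.36 without 60% replicate 2, 1.17 without 60% replicate 1 and 1.16 without 69% replicate 2. With the 4 libraries alone, 0 genes passed in either direction, with 965 and 628 at an unadjusted p under 0.05. With 1 library of the 4 left out, 2 to 11 genes were higher and 4 to 12 lower: 2 and 8 without 60% replicate 2, 9 and 9 without 60% replicate 1, 8 and 12 without 69% replicate 1, and 11 and 4 without 69% replicate 2.

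Some dopamine and pigment genes had more of their span covered at 69%. ebony (e, 3R:21229839-21237177) was covered over 21.8% and 18.1% of its span at 60% and over 51.1% and 48.4% at 69%. It had stood at 6.16% to 7.15% in the 4 libraries of 0% and 48%, and stood at 23.2% and 30.3% at 78%, so both 69% libraries were above all others. The difference was 29.8 points (SE 2.84, limma adjusted p = 0.00828). Leaving out 1 library kept it between 27.9 and 31.7 points, with an adjusted p of 0.0495 without 60% replicate 1, 0.0496 without 69% replicate 2, 0.0579 without 69% replicate 1 and 0.0778 without 60% replicate 2. Of its 11 assessed regions 2 opened and 0 closed, and neither of the 2 was in both 78% lists. In covered length e was higher by 0.89 (SE 0.14, limma adjusted p = 0.0261, and 0.0441 to 0.206 with 1 library left out).

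**Figure D4:**
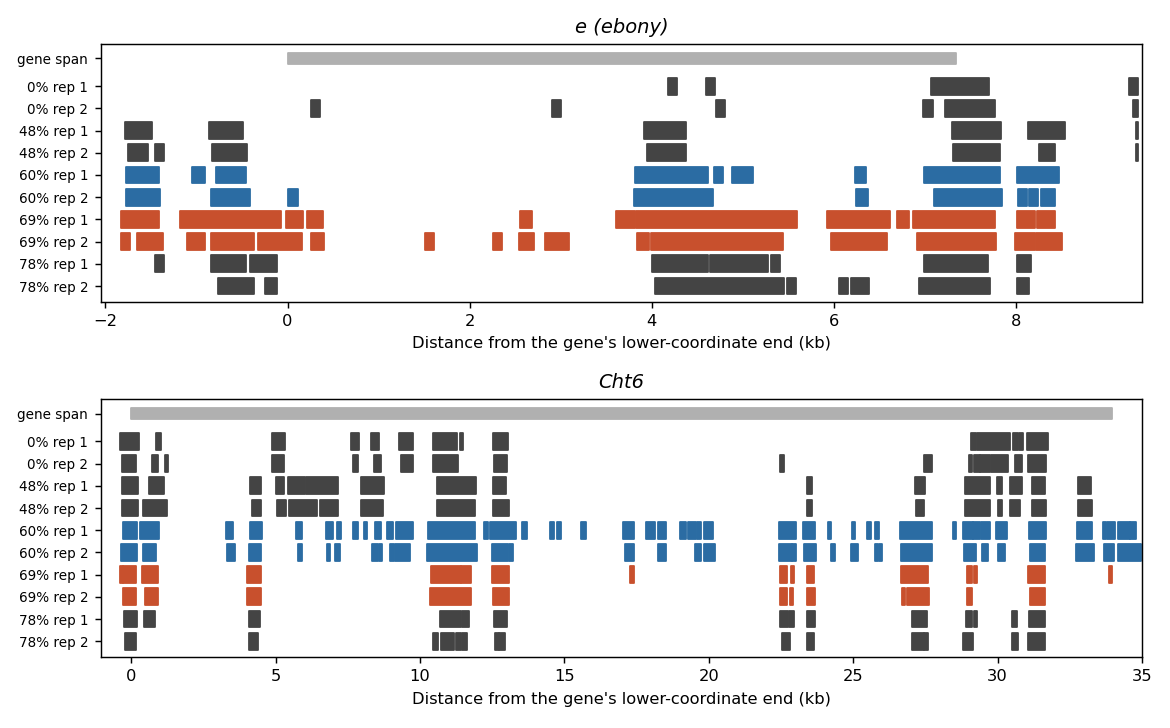
Entries of each of the 10 D. melanogaster libraries along e (top) and Cht6 (bottom), by distance in kb from the gene's lower-coordinate end, with the gene's span in grey, 60% libraries in blue and 69% libraries in orange. Entries cover 51.1% and 48.4% of e at 69% and 41.1% and 33.1% of Cht6 at 60%, each the highest among the 5 stages.

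tan (t, X:9217655-9223257) was covered over 6.69% and 4.94% at 60% and 19.6% and 18.1% at 69%. The 78% libraries, at 18.7% and 15.2%, stayed near the 69% level. The difference was 13.1 points (SE 2.26, limma adjusted p = 0.0441). Of its 4 regions 2 opened, both absent from the 0% and 48% lists and present in both 78% lists; X:9219532-9219966 was covered over 384 and 319 bp at 69% and 411 and 319 bp at 78%.

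Ddc encodes dopa decarboxylase, which makes dopamine. Its cover was 11.7% and 12.6% at 60%, 28.8% and 23.6% at 69%, and 54.1% and 51.0% at 78%. The difference from 60% to 69% was 14.1 points (SE 2.45, limma adjusted p = 0.0441, and 0.0714 with the replicate number as a block). One of its 2 regions opened, 2L:19118542-19118865, which both 78% lists also held and no earlier one.

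yellow-b, of the yellow family, had 40.1% and 39.6% covered at 60% and 58.7% and 61.2% at 69%, with 64.2% and 66.2% at 78%. The difference was 20.1 points (SE 2.73, limma adjusted p = 0.0209), although it had 0 opened regions. Leaving out any 1 of the 4 libraries ended the calls of t (adjusted p 0.115 to 0.253), Ddc (0.0701 to 0.213) and yellow-b (0.0821 to 0.159), while the differences kept their sign. Their values stayed between 12.2 and 13.9 points for t, 11.5 and 16.7 for Ddc, and 18.9 and 21.4 for yellow-b.

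At y, the yellow gene, the stages could not be told apart. It was covered over 5.28% and 5.05% at 60% and 3.76% and 6.25% at 69%, which overlap (difference -0.16 points, SE 3.93, limma adjusted p = 1.0). Its wide cover was at 48%, at 72.0% and 85.4%, and its 2 assessed regions were listed by all 4 libraries. stw, for the laccase that hardens cuticle, stood at 21.0% and 16.9% at 60% and 14.7% and 11.6% at 69% and did not pass the test (limma adjusted p = 0.217), and 2 of its 31 regions closed. speck, for an arylalkylamine acetyltransferase that acts on dopamine, had 3 of 13 regions opened, none of them in both 78% lists.

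Over the 25 genes of the pigmentation and yellow family list, 11 of 116 assessed regions opened (9.48%) and 2 closed (1.72%). Over all genes the shares were 7.42% and 2.7%. The opened share was above that of all genes also with equal entries (9.2% against 5.15%), and near it within replicate 1 (21.9% against 19.0%) and replicate 2 (30.9% against 30.2%). The closed share was 6.9% against 6.19% of all genes with equal entries, 11.4% against 13.4% within replicate 1 and 12.8% against 7.53% within replicate 2. Of 23 members tested for span cover, 4 were higher and 0 lower, with a median of 1.52 points beside 0.85 over all genes with an assessed region. The list holds genes whose behaviour in these wings was known from an earlier account of the same data, so its count is no independent evidence.

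Some genes of the cuticle and chitin list had less of their span covered at 69%, and so did qsm, which is not in that list. Vajk1 (2L:13920707-13923553), a gene of the cuticle list, was covered over 3.41% and 4.64% at 48%, almost whole at 60% with 98.1% and 97.8%, and over 48.1% and 18.9% at 69%. The 69% libraries were far apart but both below 60% (difference -64.5 points, SE 8.11, limma adjusted p = 0.0169). The difference stayed between -79.1 and -49.9 points with 1 library left out, and its adjusted p was 0.0811 without 60% replicate 1, 0.151 without 60% replicate 2, 0.00386 without 69% replicate 1 and 0.0158 without 69% replicate 2.

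Cht6 was covered over 25.4% and 25.5% at 48%, 41.1% and 33.1% at 60%, 17.2% and 15.3% at 69% and 13.7% and 11.6% at 78%. Its fall was -20.8 points (SE 2.84, limma adjusted p = 0.0212). The adjusted p was 0.0444 without 60% replicate 2 and 0.0696, 0.124 and 0.0905 without 60% replicate 1, 69% replicate 1 and 69% replicate 2, where the fall was -16.8, -21.8 and -19.9 points. Cpr49Ah, a cuticular protein gene, went from 71.0% and 77.7% to 33.5% and 24.9% (difference -45.1 points, SE 6.0, adjusted p = 0.0208, and 0.0713 to 0.159 with 1 library left out). qsm went from 84.1% and 72.3% to 47.7% and 46.9% (difference -30.9 points, SE 4.18, adjusted p = 0.0209, and 0.0444 to 0.134 with 1 library left out).

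**Figure D5:**
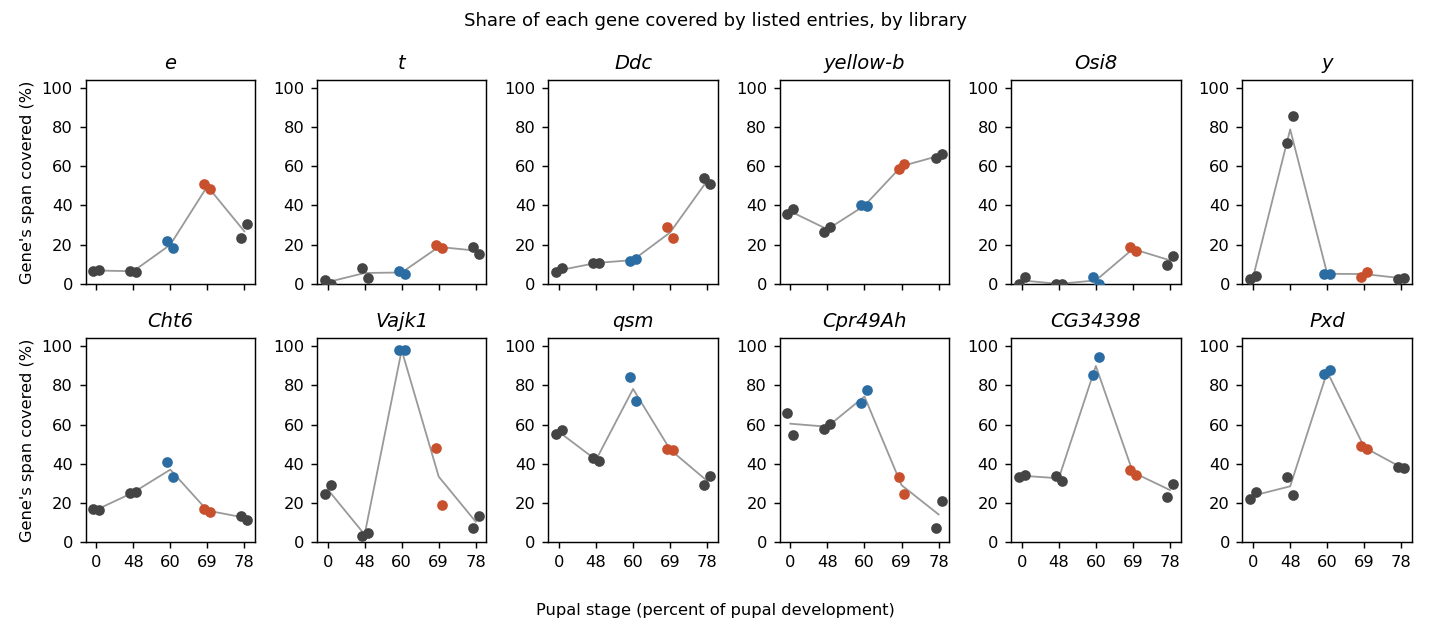
Percent of the span covered by entries in each of the 10 D. melanogaster libraries for 12 genes, by stage. Points are libraries (60% blue, 69% orange) and lines join stage means; e, t, Ddc, yellow-b and Osi8 were higher at 69%, y was high at 48% alone, and the lower 6 genes were highest at 60%.

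The cuticle and chitin list as a whole held both directions. Of 497 assessed regions of the cuticle and chitin list 31 opened (6.24%) and 33 closed (6.64%), beside 7.42% and 2.7% over all genes. The closed share was also above that of all genes with equal entries (7.33% against 6.19%), within replicate 1 (18.9% against 13.4%) and within replicate 2 (11.4% against 7.53%). Of the 33, 12 were those of Cht6, on the X, where 7.24% of all assessed regions closed. Another 4, of 28 assessed, were those of exp, a gene known from chitin-lined tracheal tubes, which had 0 opened. None of the 4 was in a 78% list. In span cover 0 of 63 members were higher and 3 lower, and in covered length 3 of 102 were higher (Cpr47Eg, Cpr49Ae and TwdlW) and 3 lower (Cht6, Vajk1 and Cpr66Cb). Cpr47Eg, a cuticular protein gene, had 2 of its 3 regions opened and was higher in covered length by 2.87 (SE 0.40, limma adjusted p = 0.0176, and 0.0558 to 0.167 with 1 library left out). Its region at 2R:11276955-11277429 was covered over 440 and 437 bp at 69% and 447 and 464 bp at 78%, and not before. Lcp65Ag2, which has a near-identical neighbouring copy that reads may not separate, had both of its regions opened.

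Genes of the Osiris family encode membrane proteins of cells that secrete cuticle. Of their 87 assessed regions 13 opened (14.9%, beside 7.42% over all genes) and 1 closed (1.15%, beside 2.7%), with opened regions in 9 genes. The libraries listed 64.4% and 59.8% of these regions at 60% and 89.7% and 86.2% at 69%; over all genes the shares were 73.2% and 58.7%, then 78.3% and 77.7%. With equal entries the opened share was 5.97% of 67 regions, near the 5.15% of all genes, and within the replicates it was 30.0% against 19.0% and 32.5% against 30.2%. In covered length 0 of 22 members passed in either direction. Osi8 was covered over 3.57% and 0% at 60% and 19.0% and 16.6% at 69% (difference 16.0 points, SE 2.2, limma adjusted p = 0.0216), and was the only one of 19 members to pass. Without 1 library its adjusted p was 0.0696 to 0.167. Osi21 had 3 of 11 regions opened, and Osi5 2 of 4.

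Genes of hairs, apical matrix and planar polarity had an opened share near that of all genes, 32 of 453 regions (7.06%), and a closed share of 4.42%, beside 7.42% and 2.7%. The closed share was 8.01% against 6.19% of all genes with equal entries, 14.8% against 13.4% within replicate 1 and 11.9% against 7.53% within replicate 2. f, on the X, encodes the actin-bundling protein Forked of bristles and hairs. It had 4 of 18 regions closed, all 4 in both 48% lists and in neither 78% list, and 3 opened. Of all assessed X regions 7.24% closed. dpy, for the giant apical matrix protein Dumpy, had 4 of 82 closed and 2 opened. The polarity genes ds and pk had 4 opened regions each, of 53 and 29. In covered length qua, for the actin-bundling protein Quail, fell by 0.56 (SE 0.10, limma adjusted p = 0.0351) and was the only member to pass; it did not pass with any of the 4 libraries left out (adjusted p 0.124 to 0.232).

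Ecdysone response genes had 53 of 509 regions opened (10.4%) and 18 closed (3.54%), beside 7.42% and 2.7% over all genes. Eip93F, for a late ecdysone-induced factor known to shape accessibility in pupal wings, had 8 of 55 regions opened and 0 closed. The 60% libraries listed 36 and 30 of its regions and the 69% libraries 48 and 46, which the choice of the gene by its opened regions partly sets. Of the 8, 6 were in both 78% lists and 6 in no 0% or 48% list. EcR, for the ecdysone receptor, had 6 of 47 opened, all 6 in both 78% lists, and 3 closed. Hr38, a nuclear receptor gene, had 4 of 27 closed and 1 opened, and tai, for a coactivator of the receptor, had 4 of each among 50. The list's opened share was above that of all genes also with equal entries (8.54% against 5.15%), but was 19.0% against 19.0% within replicate 1 and 25.6% against 30.2% within replicate 2. One member passed the covered-length test: Blimp-1, for an ecdysone-induced repressor, higher by 0.69 (SE 0.11, limma adjusted p = 0.0249, and 0.179 without 69% replicate 2), with 3 of 19 regions opened.

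Wing patterning genes had 44 of 683 regions opened (6.44%) and 26 closed (3.81%), near the 7.42% and 2.7% of all genes. With equal entries the closed share was 5.9% against 6.19% of all genes, within replicate 1 it was 13.0% against 13.4%, and within replicate 2 it was 7.84% against 7.53%. hth had 6 of 63 opened and rn 4 of 25, while salm had 3 of 22 closed and bi 3 opened and 3 closed of 25. The 6 wing identity genes had 5 of 102 opened (4.9%) and 4 closed (3.92%). In neither list did a gene pass the span or the length test.

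Markers of other cells in the wing are given with these results because their part was not tested. Sensory organ and neuron genes had 32 of 311 regions opened (10.3%) and 10 closed (3.22%), beside 7.42% and 2.7% over all genes. brp, for the synaptic scaffold Bruchpilot, had 6 of 32 opened, all 6 in no 0% or 48% list, and the receptor gene nAChRalpha6 had 5 of 33. The list's opened share was 3.92% with equal entries, under the 5.15% of all genes. Sh, a potassium channel gene on the X, had 3 of 10 closed. Muscle genes had 15 of 304 opened (4.93%) and 7 closed, with 3 of 21 at Mhc. Hemocyte genes had 10 of 119 opened (8.4%) and 2 closed, among them 5 of 39 at ush and 2 of 4 at the collagen gene Col4a1. Tracheal genes had 10 of 195 opened and 7 closed.

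Of 113 assessed regions of cell cycle genes 4 opened (3.54%) and 6 closed (5.31%), and of 159 of ribosomal protein genes 7 opened (4.4%) and 3 closed (1.89%), beside 7.42% and 2.7% over all genes. The closed share of the cell cycle list was below that of all genes with equal entries (5.56% against 6.19%) and within replicate 1 (11.4% against 13.4%), and above it within replicate 2 (10.3% against 7.53%). CycE had 2 of 7 regions closed and CycG 2 of 8 opened. RpL37-1 fell by 0.69 in covered length (SE 0.13, limma adjusted p = 0.0463, and 0.157 to 0.308 with 1 library left out). Among ribosomal protein genes RpL22-like, a paralog used mainly in the germline, was covered over 7.87% and 0% at 60% and 30.2% and 27.3% at 69% (difference 24.8 points, SE 3.61, limma adjusted p = 0.0243, and 0.0655 to 0.178 with 1 library left out). None of its 7 regions opened and 1 closed, and its covered length did not pass (limma adjusted p = 0.731).

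Beyond the lists, the genes with the smallest p-values for span cover were of other kinds. phr, for the DNA photolyase, went from 29.4% and 24.6% to 71.6% and 66.7% and stood at 70.0% and 71.3% at 78% (difference 42.1 points, SE 3.12, limma adjusted p = 0.00484). LKRSDH, of lysine breakdown, went from 9.3% and 5.1% to 27.2% and 27.1% (difference 20.0 points, SE 2.0, adjusted p = 0.00828). CG12391 went from 20.6% and 22.5% to 56.4% and 58.6%, with 61.5% and 67.2% at 78%; its neighbour CG13231 is among the genes with more covered length. CG30394 went from 16.9% and 18.9% to 43.6% and 46.3%, and CG30082 from 0% in both libraries to 45.1% and 34.8%. The call of phr held with any 1 library left out (adjusted p 0.0168 to 0.0444), and that of LKRSDH held only without 60% replicate 1 (0.0393, against 0.0566 to 0.0778).

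On the lower side CG34398, with a span of 34809 bp (2L:8898786-8933594), was covered almost throughout at 60%, at 85.4% and 94.4%, and at 37.1% and 34.4% at 69%. At 48% it had stood at 33.9% and 31.5%, so the broad cover was seen at 60% alone (difference -54.2 points, SE 3.89, limma adjusted p = 0.00484, and 0.0156 to 0.0444 with 1 library left out). The peroxidase gene Pxd went from 85.8% and 88.1% to 49.1% and 47.8% (difference -38.5 points, limma adjusted p = 0.00828, 0.0767 without 60% replicate 2 and 0.0559 without 69% replicate 2). Adsl, a purine synthesis gene that lies within the span of Pxd, went from 95.6% and 100% to 39.4% and 32.4%, so these 2 are not separate observations. CG30187 went from 100% and 96.4% to 55.4% and 47.7%, and CG5928, on the X, from 71.8% and 85.2% to 24.6% and 23.6%.

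Most genes that lost much of their cover had been covered most widely at 60%. Taking genes whose 4 libraries did not overlap and whose stage means differed by at least 20 points, 38 were lower and 45 higher at 69%. Of the 38 lower genes 35 had their highest stage mean at 60%. Of the 45 higher genes 26 had their highest at 69%, and 36 had a 78% mean nearer to that of 69% than of 60%. The 60% and 69% values chose these genes, which favours a highest mean at 60% for lower genes and at 69% for higher genes. Values of the other stages did not enter the choice. Setting them against 60% or 69% is still not independent of it.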

How the data were processed

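Nuclei of dissected wings were treated with Tn5 transposase, per the labels' protocols. The submitters' processing notes name dm6, HOMER, MACS2, SAMtools, Picard and Bowtie2 and give no version. The deposited entries were called by HOMER findPeaks, per the file headers, with a size of 100 bp, a minimum distance of 100 bp, a Poisson p threshold of 0.001, a local filter of 10000 bp at 0.0001 and a genome size of 120 Mb. The deposited score is the constant 1 and was not used as a value; coordinates are given here counted from 1. List order follows width (Spearman's rho across entries -0.985 to -0.967), so the top of a list holds its widest entries.

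A library listed a region if its entries shared at least 1 base with it. Regions were assigned to the protein-coding gene they overlap, or to the one with the nearest end within 10000 bp (93.2% assigned), from RefSeq spans of the same assembly (Release 6 plus ISO1 MT), which has 1 span per gene. Overlapping genes cannot be told apart. Covered length was tested with limma 3.58.1 in R 4.3.3 for genes with a mean of at least 200 bp, pseudocount 100 bp, all 10 D. melanogaster libraries, Benjamini-Hochberg over all genes. Regions carry no p-value. Scripts used Python 3.11.15 with numpy 2.4.6, pandas 2.3.3 and scipy 1.17.1, and the rule and both fits were tested on simulated data. The members and the 13 gene lists were chosen with earlier results of these data known. Named genes are the 12 with the highest count of opened regions and the 12 with the highest count of closed ones, up to 2 of each kind in each list, y, and the 6 of smallest p in each direction of the covered-length test; 1 of these genes is not reported here. Other names were chosen after their values were seen. Replicate numbers match the dated folders of the headers for 60% and 69%, and their deviations in covered length correlated at -0.1 across genes. Nothing says from which animals the wings of each library came, so p-values measure the spread between these libraries. Promoter sequences and motifs were not used here.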

Additional observations from a re-analysis of the deposited data

How the results depend on the processing

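Opened and closed regions depended on list length. Opened regions were 1307 with the first 20000 entries of each list, 2334 with equal numbers, 109 when strongly listed (in the first 20000 entries of each library of a stage, and nowhere in the other stage) and 16467 in the authors' lists called on pooled replicates; closed regions were 2767, 61 and 3917 in the last 3, and 2821 with at least 50% of a region covered. The closed count was 1557 with the first 20000, so closed then exceeded opened there and with equal numbers; the cause was not tested. Leaving out libraries gave 5320 to 16103 opened and 2610 to 7558 closed. The closed share of the X stayed above that of 2L, 2R, 3L and 3R in each of these settings and in bins of 1000 bp.

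Genes with more and less covered length numbered 140 and 134 with quantile normalization, 172 and 122 with no filter on low values, 127 and 129 with the 4 libraries alone, and 512 and 406 with these 4 and the replicate block. With the replicate block on all 10 libraries they were 52 and 58, and for span cover 49 and 42. With 1 library left out they were 0 to 57 and 1 to 23 for covered length and 2 to 11 and 4 to 12 for span cover, where the 4 libraries alone gave 0 and 0. The differences of the named genes that passed kept their sign with each library left out; the median span difference over all genes, 0.66 points, turned to -0.04 without 69% replicate 1. The folder block, the fit of the 4 libraries with the replicate block, arms without the X and all span fits were chosen after seeing the data. The cause of these shifts was not tested. Lists without signal cannot show changes inside regions that stay listed at the same width.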
